A study of Mus musculus with 26 samples.

Results

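Of the 16718 rows of the deposited mouse expression table, 4 carry a symbol of the cytosolic ribosomal protein families. They were found by symbol alone, as names starting with Rpl or Rps followed by a number, or Rplp0, Rplp1 or Rplp2, with kinases of the Rps6k family and names marked as pseudogenes left out. These 4 are the stalk genes Rplp0, Rplp1 and Rplp2, and Rpl6l, which GENCODE M21 annotates as a processed pseudogene related to Rpl6. The results therefore describe the stalk and 1 pseudogene, not the ribosomal proteins as a class, and other genes with such symbols were not analysed here.

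Expression was measured by RNA sequencing of total RNA in 26 libraries. The study used small molecules to turn fibroblasts into pluripotent stem cells (chemical reprogramming). MEF (mouse embryonic fibroblasts, the starting cells) has 1 library, counted here as day 0. The course minus BrdU was run without bromodeoxyuridine, a thymidine analogue, and has 1 library on each of days 6, 12, 18, 22, 30, 36 and 40. The course minus Chir lacked Chir, a GSK3 inhibitor that activates Wnt signalling, and has 1 library on each of days 6, 12, 18, 22 and 30. For all chemicals, the complete course, there are 7 libraries from the same days as minus BrdU. CiPSC, chemically induced pluripotent stem cells, has 6 libraries that carry replicate numbers. The labels give no mouse strain, no passage and no list of the other chemicals, and nothing says whether the CiPSC libraries are separate lines or cultures. The deposited values are scores that follow 1 common distribution in all libraries, so that totals lay between 4143561 and 4162600, and sequencing depth is unknown. They show a gene's place relative to other genes, not RNA per cell.

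The ribosome is assembled from ribosomal RNA and a fixed set of proteins, and most of those proteins are made in equal amounts. The stalk is the arm of the large subunit that recruits translation factors: Rplp0 (also called uL10) is its base, bound to ribosomal RNA, and Rplp1 and Rplp2 are acidic proteins that bind to Rplp0 as dimers and contact elongation factors. Messenger RNAs of ribosomal proteins and of many translation factors belong to the TOP class, named for a 5′ terminal oligopyrimidine tract, through which mTOR and the RNA-binding protein Larp1 control their translation. Ribosomal protein genes also have many processed pseudogenes, so that short reads from a gene and a copy can be hard to assign.

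The following sequences show how closely the measured rows match their relatives, which bears on every value below. Each pair gives 90 bases of the coding sequence or its counterpart (mm10 positions of genes from GENCODE M21), and capitals mark the bases that differ within the pair. The stretch shown is the gap-free one with the most differences, so the rest of each pair is more alike. Rplp0 lies at chr5:115559467-115563727 on the plus strand, and Gm8730, a processed pseudogene, at chr8:102864845-102865798 on the minus strand.
Rplp0: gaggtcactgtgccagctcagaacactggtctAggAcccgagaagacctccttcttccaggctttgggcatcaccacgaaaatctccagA
Gm8730: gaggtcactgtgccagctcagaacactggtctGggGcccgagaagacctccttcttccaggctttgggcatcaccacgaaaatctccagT
Rplp1 lies at chr9:61913284-61914542 on the minus strand, and Gm10073, annotated as protein coding, at chr8:106572966-106573461 on the minus strand.
Rplp1: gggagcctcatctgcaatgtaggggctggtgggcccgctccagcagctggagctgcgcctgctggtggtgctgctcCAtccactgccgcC
Gm10073: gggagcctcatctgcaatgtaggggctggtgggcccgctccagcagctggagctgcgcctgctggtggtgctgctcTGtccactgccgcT
Rpl6, the protein-coding relative of Rpl6l, lies at chr5:121204481-121209241 on the plus strand, and Rpl6l at chr10:111125851-111126721 on the plus strand.
Rpl6: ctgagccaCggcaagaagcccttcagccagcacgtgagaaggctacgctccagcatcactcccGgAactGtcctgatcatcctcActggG
Rpl6l: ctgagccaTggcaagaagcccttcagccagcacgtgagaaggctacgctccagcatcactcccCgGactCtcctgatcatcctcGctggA
The first pair differs at 3 of these 90 bases, the second at 3 and the third at 6. Over the whole coding sequence, Rplp0 and Gm8730 were identical at 939 of 951 positions (98.7%), Rplp1 and Gm10073 at 337 of 342 (98.5%), and Rpl6 and Rpl6l at 860 of 871 aligned positions (98.7%).

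Stretches of 75 bases, the number of sequencing cycles in the labels, were compared across all GENCODE M21 transcripts. In Rpl6l, 553 of 797 such windows (69.4%) also occurred in another gene, and Rpl6 alone shared 53.7% of them. In Rplp1, 195 of 425 windows (45.9%) were shared, all 195 of them with Gm10073. In Rplp0, 352 of 1284 windows (27.4%) were shared with 5 genes, and Gm8730 held 13.6% of all windows. In Rplp2, which lies at chr7:141447370-141451585 on the plus strand, 206 of 890 windows (23.1%) were shared with Wdr89, a gene for a WD repeat protein. Reads from Rpl6l and from a related gene therefore cannot be told apart over most of its length.

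Start regions were searched for a run of at least 5 pyrimidines that opens with C within 10 bases of the annotated start, a plain reading of the TOP motif. RefSeq promoters on GRCm38.p6 were available for both Rplp0 and Rplp2, and 70 bases of each are shown, with any such run in capitals. They cover chr5:115559427-115559496 and chr7:141447611-141447680, both on the plus strand.
Rplp0: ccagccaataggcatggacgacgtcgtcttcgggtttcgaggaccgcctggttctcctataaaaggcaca
Rplp2: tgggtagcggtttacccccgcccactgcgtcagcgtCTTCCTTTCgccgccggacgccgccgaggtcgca
The Rplp2 region held 1 run of 9 bases that began 4 bases before the annotated start. No run was found in the Rplp0 region at that place, although ctcct opens just beyond the 10-base limit. Of 32851 promoters of the same length, 29% held such a run on the strand of the gene. The other strand was searched at the mirrored place, upstream of the start and not at it, where 30.6% held a run. A match, or the lack of a match, is therefore no more than a description.

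The values move in steps. The 126 highest values are the same numbers in every library and come in blocks of 10 nearly equal values. Within blocks 2 to 20, values differed by at most 0.865%, while neighbouring blocks were 2.5% to 35.8% apart. Each of the 4 genes kept nearly the same place within its block, as Rplp0 did in 23 of 26 libraries, Rpl6l in 23 of 26, Rplp1 in 18 of 26 and Rplp2 in 20 of the 24 libraries in which it was among the 400 highest values. Differences inside a block are therefore not read as differences below, and levels of different genes are not compared. None of the 4 genes reached the table's maximum of 21988, which exactly 10 genes held in each library. Their highest value was 8304, in Rpl6l on day 18 of the course with all chemicals, and their lowest was 1304, in Rplp2 on day 30 of minus BrdU.

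Rplp2 had the largest differences from CiPSC among the 3 stalk genes. It had 1796 in MEF. In minus BrdU it had 1920, 2556, 2108, 1920, 1304, 2634 and 1758 on days 6, 12, 18, 22, 30, 36 and 40. In minus Chir it had 2768, 1920, 2634, 2635 and 4512 on days 6 to 30. The course with all chemicals had 1370, 2556, 2912, 3638, 2912, 2282 and 2282 on its 7 days, and the 6 CiPSC libraries had 4512, 3850, 5536, 3850, 5536 and 3850. Every CiPSC library was above MEF and above every course library, except that minus Chir on day 30 stood level with CiPSC 1 and above 3 CiPSC libraries. By group, Rplp2 averaged 2029 ± 461 in minus BrdU (SD over 7 days), 2894 ± 964 in minus Chir (SD over 5 days), 2565 ± 705 in all chemicals (SD over 7 days) and 4522 ± 826 in CiPSC (SD, n = 6).

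Rplp0, the base of the stalk, had 4962 in MEF. In minus BrdU it had 3230, 3630, 3842, 4504, 2760, 4203 and 3630 on days 6 to 40, and in minus Chir 3630, 2329, 2760, 3084 and 4504 on days 6 to 30. With all chemicals it had 3230, 3416, 3630, 3842, 3630, 3842 and 4504, and CiPSC had 5524, 5522, 5524, 4959, 5524 and 4959. All 19 course libraries were below the lowest CiPSC library, the highest of them at 4504, while MEF lay inside the CiPSC range. Means were 3686 ± 582 in minus BrdU, 3261 ± 841 in minus Chir, 3728 ± 407 in all chemicals and 5335 ± 292 in CiPSC (SD, the same numbers of libraries), so the courses overlapped one another.

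Rplp1, which pairs with Rplp2, had 4959 in MEF. It had 6078, 4959, 5522, 4201, 4201, 6861 and 4959 on days 6 to 40 of minus BrdU, and 3627, 3229, 3628, 3229 and 8303 on days 6 to 30 of minus Chir. With all chemicals it had 4501, 4502, 3414, 4502, 4200, 4501 and 5522, and in CiPSC 6861, 6860, 6078, 4501, 6860 and 5522. Its groups overlapped throughout: CiPSC 4 was at the level of most days with all chemicals, and the highest of all 26 values was in minus Chir. Means were 5254 ± 977 in minus BrdU, 4403 ± 2190 in minus Chir, 4449 ± 619 in all chemicals and 6114 ± 962 in CiPSC.

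Rpl6l had 3841 in MEF. In minus BrdU it had 6861, 6078, 6078, 5522, 2902, 4958 and 3841 on days 6 to 40, in minus Chir 4959, 4200, 3841, 3628 and 6861 on days 6 to 30, and with all chemicals 5522, 6078, 8304, 6861, 3628, 4959 and 4501. CiPSC stood at 6078 in 5 libraries and at 6861 in the other. MEF was below every CiPSC library. In contrast, days 6 to 18 of minus BrdU, day 30 of minus Chir and days 12 to 22 of all chemicals were level with CiPSC libraries or above them. Means were 5177 ± 1390 in minus BrdU, 4698 ± 1310 in minus Chir, 5693 ± 1560 in all chemicals and 6208 ± 320 in CiPSC.

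In all 4 genes CiPSC had the highest group mean. The order of the other groups differed from gene to gene, and neighbouring groups in that order overlapped, except in Rplp0, where MEF and CiPSC lay above all course libraries. In MEF, with 1 library, the spread is unknown.

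**Figure D1:**
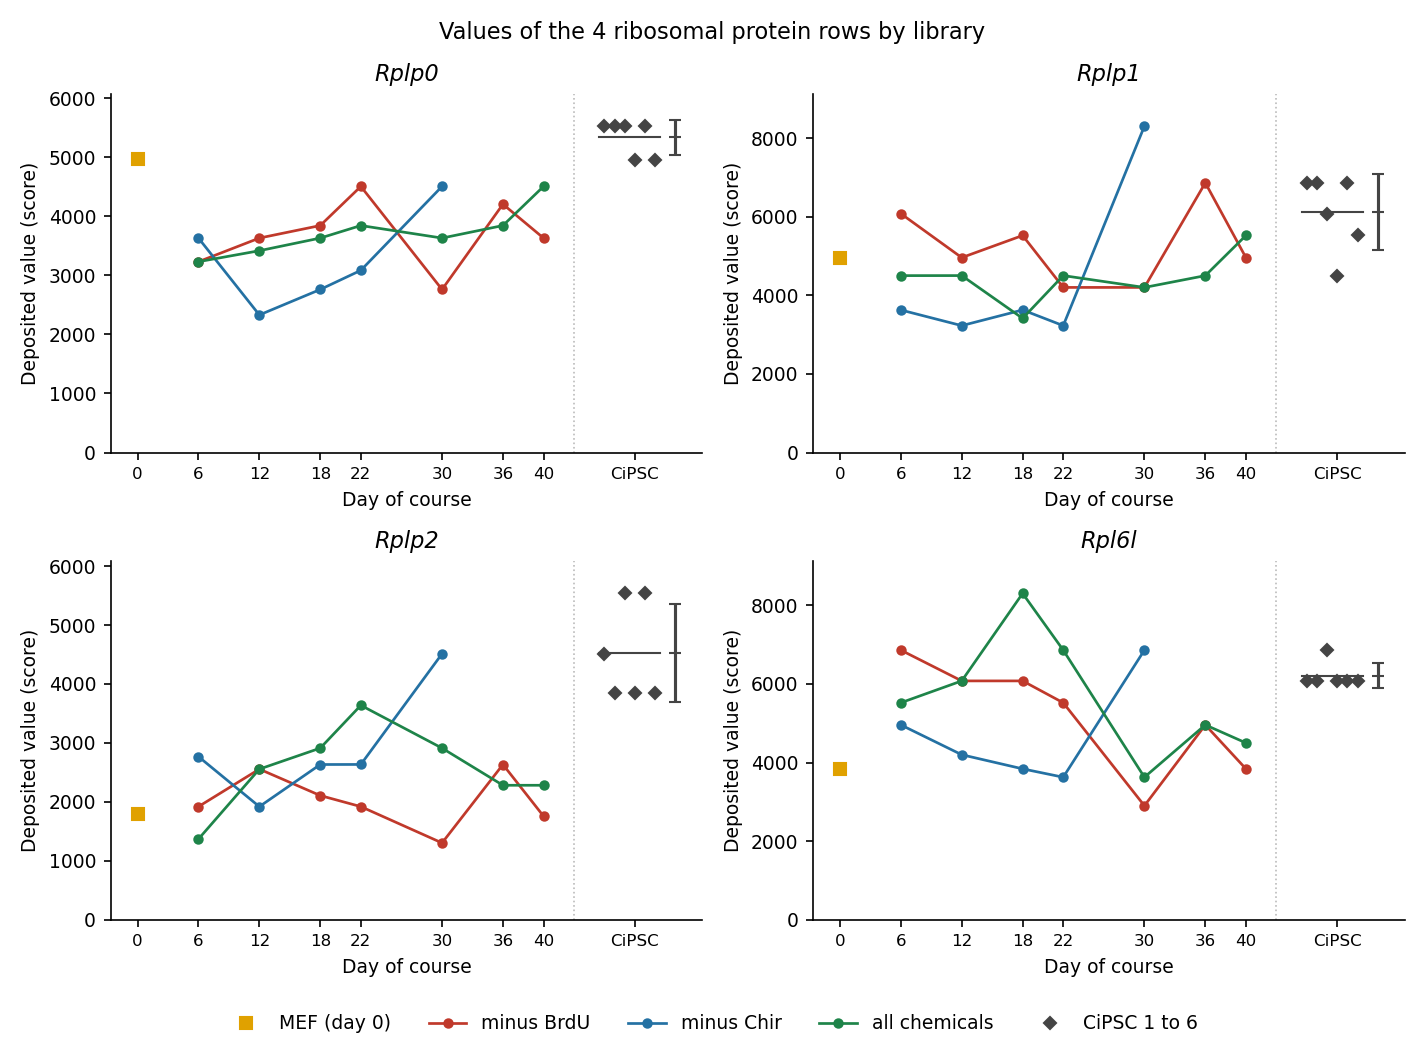
Deposited values (score, linear axis from 0) of Rplp0, Rplp1, Rplp2 and Rpl6l against day of the course, with MEF as a square at day 0, 1 point per library for minus BrdU, minus Chir and all chemicals, and the 6 CiPSC libraries as diamonds at the right with their mean (line) and SD (bar). The minus Chir line ends on day 30 with its highest value in every panel, and the CiPSC diamonds of Rplp2 lie between 3850 and 5536.

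Differences were tested with limma on log2(value + 1) over all genes with a mean of at least 1, with Benjamini-Hochberg adjusted p under 0.05 as the call, and all values below are on that log2 scale with their SE. In each of the 3 course comparisons day was a block, since there is 1 library per course and day. Days are not repeats of a culture, and successive days are not independent, so these p-values measure only the spread over days. MEF and each day 40 library were set against CiPSC with the spread of the 6 CiPSC libraries alone, on the assumption that a lone library varies as they do. The labels name no batch, and any difference in how CiPSC and course libraries were made cannot be told apart from the groups.

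Against CiPSC, Rplp2 was lower in each of the 3 lone libraries. It was lower by a log2 difference of -1.31 ± 0.27 in MEF (adjusted p = 0.0115), of -1.34 ± 0.27 on day 40 of minus BrdU (adjusted p = 0.00996) and of -0.97 ± 0.27 on day 40 of all chemicals (adjusted p = 0.0451), all by limma. The last of these calls was lost without CiPSC 1, 2, 3, 4 or 6, each left out in turn, with adjusted p between 0.0517 and 0.0845. Rpl6l was lower by -0.69 ± 0.14 in MEF (limma, adjusted p = 0.011) and by -0.69 ± 0.14 on day 40 of minus BrdU (limma, adjusted p = 0.0104). On day 40 of all chemicals Rpl6l differed by -0.46 ± 0.14 (limma, adjusted p = 0.0576). This missed the threshold, and was called without CiPSC 5 (adjusted p = 0.0464) and with a pseudocount of 5 (adjusted p = 0.0392). Its small SE rests on 5 CiPSC libraries that hold 1 and the same value.

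Rplp0 was lower than in CiPSC on day 40 of minus BrdU, by -0.55 ± 0.14 (limma, adjusted p = 0.0227). It differed by -0.10 ± 0.14 in MEF (limma, adjusted p = 0.598; 95% interval -0.44 to 0.24) and by -0.24 ± 0.14 on day 40 of all chemicals (limma, adjusted p = 0.254; 95% interval -0.58 to 0.10). Rplp1 was called in none of the 3, with differences of -0.29 ± 0.27, -0.29 ± 0.27 and -0.13 ± 0.27 in MEF, day 40 of minus BrdU and day 40 of all chemicals (limma, adjusted p = 0.453, 0.445 and 0.772). Counted together, 2 of the 4 genes were called in MEF, where 40.2% of 16416 genes tested were called and 22.2% were called lower. On day 40 of minus BrdU 3 of 4 were called, against 41.5% of all genes (22.4% lower), and on day 40 of all chemicals 1 of 4 was called, against 27.5% of all genes (14.8% lower). Each of these calls was in the lower direction. The 3 comparisons share their CiPSC libraries.

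Leaving out BrdU did not bring any of the 4 genes past the threshold, although 6946 of 16308 genes (42.6%) were called in that comparison, 21.1% higher and 21.5% lower. Over the 7 shared days, minus BrdU against all chemicals gave 0.23 ± 0.16 for Rplp1, -0.32 ± 0.21 for Rplp2, -0.03 ± 0.13 for Rplp0 and -0.14 ± 0.15 for Rpl6l (limma, adjusted p = 0.269, 0.235, 0.892 and 0.46). The 95% interval of Rplp2 ran from -0.78 to 0.15 and that of Rplp0 from -0.33 to 0.28, and differences inside these bounds cannot be told from none. At an unadjusted p under 0.05 the count was also 0 of 4. By blocks, Rplp2 was lower in minus BrdU on 4 days, higher on 2 and in the same block on 1, and Rplp1 was higher on 4 days, lower on 2 and in the same block on 1.

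Leaving out Chir gave 0 of 4 calls as well, where 4298 of 16248 genes (26.5%) were called, 13.5% higher and 12.9% lower. Over the 5 shared days, minus Chir against all chemicals differed by -0.16 ± 0.20 for Rplp0, -0.04 ± 0.26 for Rplp1, 0.12 ± 0.26 for Rplp2 and -0.36 ± 0.32 for Rpl6l (limma, adjusted p = 0.57, 0.918, 0.741 and 0.411), and 0 of 4 passed an unadjusted p under 0.05. The daily values turned about: on days 12 and 22 all 4 genes were lower in minus Chir than with all chemicals, and on day 30 all 4 were higher. On day 22 Rpl6l had 3628 in minus Chir and 6861 with all chemicals, and on day 30 it had 6861 in minus Chir and 3628 with all chemicals. The 95% interval of Rpl6l was accordingly wide, from -1.10 to 0.38.

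The 2 courses that each lack a chemical were also compared directly. Minus Chir against minus BrdU, over 5 days, gave 0.54 ± 0.28 for Rplp2, -0.16 ± 0.23 for Rplp0, -0.27 ± 0.27 for Rplp1 and -0.21 ± 0.30 for Rpl6l (limma, adjusted p = 0.186, 0.619, 0.463 and 0.626). None of the 4 was called, with 0 of 4 also at an unadjusted p under 0.05, where 32.2% of 16087 genes were called, 16.9% higher and 15.2% lower. Without day 30, 2 of the 4 were called, both lower in minus Chir: Rplp1 by -0.59 (limma, adjusted p = 0.0188) and Rpl6l by -0.57 (limma, adjusted p = 0.019). The share of all genes called without day 30 was not counted, so these 2 calls cannot be set beside it.

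From MEF through the 7 days of the course with all chemicals, no straight-line trend was called in the 4 genes, against 16.7% of 16314 genes, 9.31% rising and 7.42% falling. Slopes per 10 days were 0.14 ± 0.11 for Rplp2, 0.01 ± 0.08 for Rplp0, 0.02 ± 0.08 for Rplp1 and -0.04 ± 0.12 for Rpl6l (limma, adjusted p = 0.407, 0.946, 0.887 and 0.856), with 0 of 4 at an unadjusted p under 0.05. A slope cannot show a rise and fall, and Rplp2 had its highest value of this course, 3638, on day 22 while Rpl6l had its highest, 8304, on day 18.

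**Figure D2:**
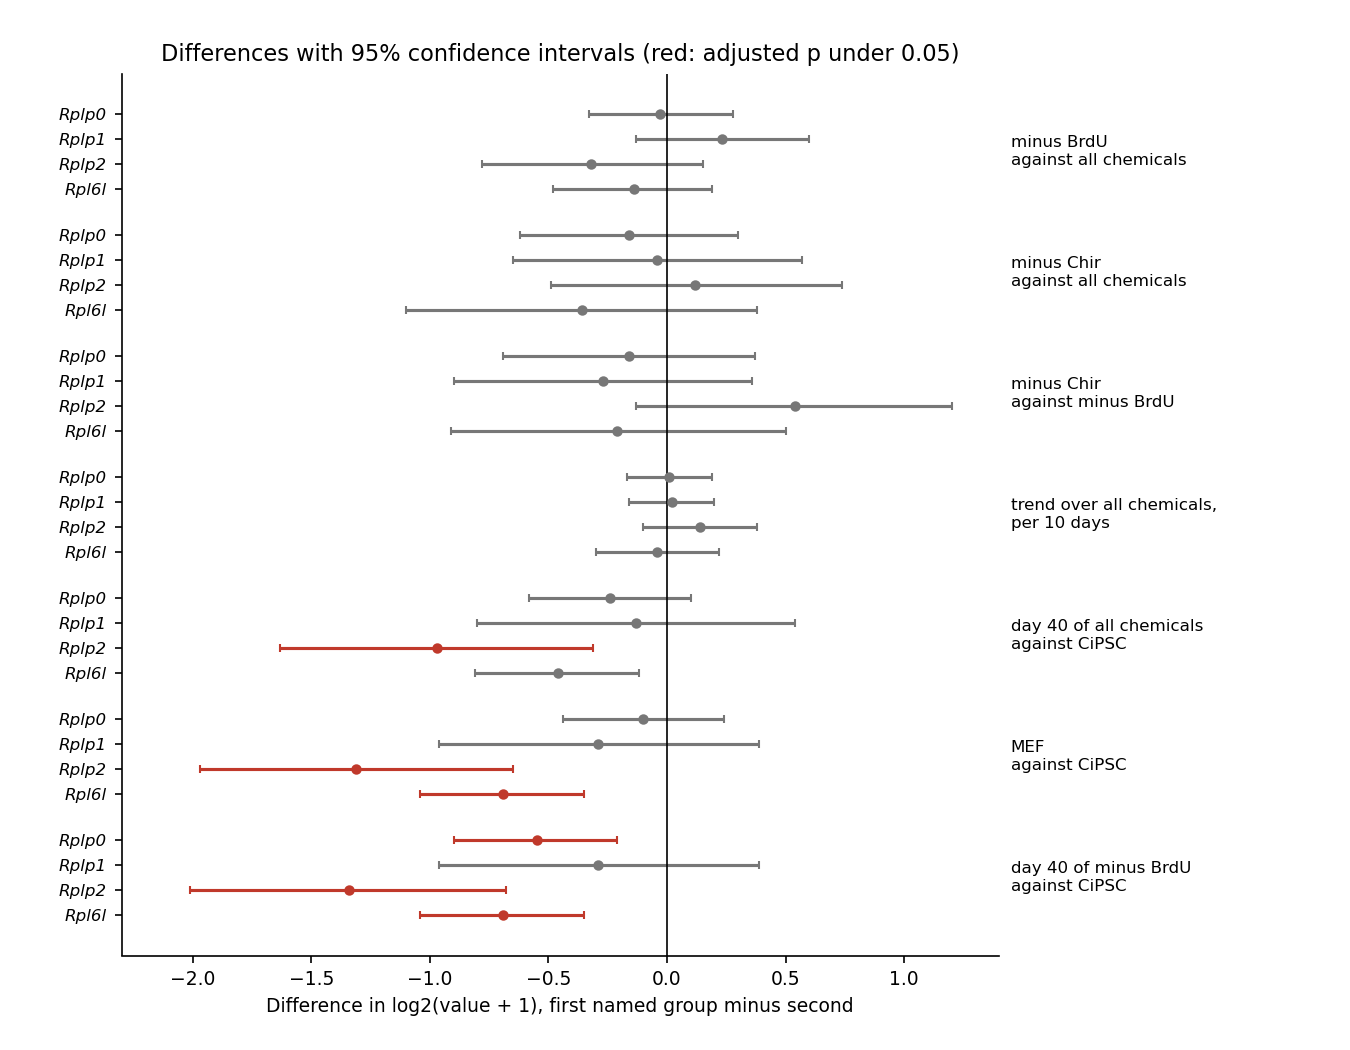
Differences in log2(value + 1) for the 4 genes in each comparison (horizontal axis), as points with 95% confidence intervals from limma, red where the adjusted p is under 0.05. All red points lie left of 0 and belong to the 3 comparisons with CiPSC, where Rplp2 is at -0.97, -1.31 and -1.34.

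Day 30 of minus Chir stood out for all 4 genes. Rplp1 was at 8303 there, against 3229 to 3628 on the 4 earlier days of that course, and Rplp2 at 4512, against 1920 to 2768. The same library was the highest of its course for Rpsa, a small-subunit protein (6080), and for Fau, which encodes a ubiquitin-like protein fused to a small-subunit protein (923). The median of the 77 mitochondrial ribosomal protein genes was 229 in it and 139 to 170 on the other days of minus Chir. Its summed cell cycle markers, at 325, were the lowest of that course. What this library's RNA or handling contributes was not tested.

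Of the related genes that share these stretches, the table held Gm8730 and Gm10073, which are near-identical copies, and Wdr89, which shares only part of Rplp2. Gm8730 had 1116 in MEF, 696 to 994 in minus BrdU, 594 to 1026 in minus Chir and 856 to 1116 with all chemicals, against 1437 to 2280 in CiPSC. Gm10073 had 33 in MEF, 10 to 68 in minus BrdU, 4 to 54 in minus Chir and 0 to 43 with all chemicals, against 101 to 270 in CiPSC. Wdr89 had 30 in MEF, 18 to 46 in minus BrdU, 20 to 39 in minus Chir and 24 to 42 with all chemicals, against 84 to 160 in CiPSC. In each of these 3 genes every CiPSC library was above all 20 other libraries. Gm8730 was called lower than in CiPSC on day 40 of minus BrdU, by -1.13 ± 0.23 (limma, adjusted p = 0.0111), and differed by -0.67 ± 0.23 in MEF and by -0.67 ± 0.23 on day 40 of all chemicals (limma, adjusted p = 0.0654 and 0.0833). By limma, Gm10073 was called lower than in CiPSC in MEF (-2.22), on day 40 of minus BrdU (-2.45) and on day 40 of all chemicals (-4.14), and so was Wdr89 (-1.90, -2.21 and -1.47 in that order). The MEF value of Gm8730 was called without CiPSC 4 (adjusted p = 0.0415) or CiPSC 5 (adjusted p = 0.0427). How many reads of Rplp0 and Rplp1 the authors' estimation gave to these copies was not tested.

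**Figure D3:**
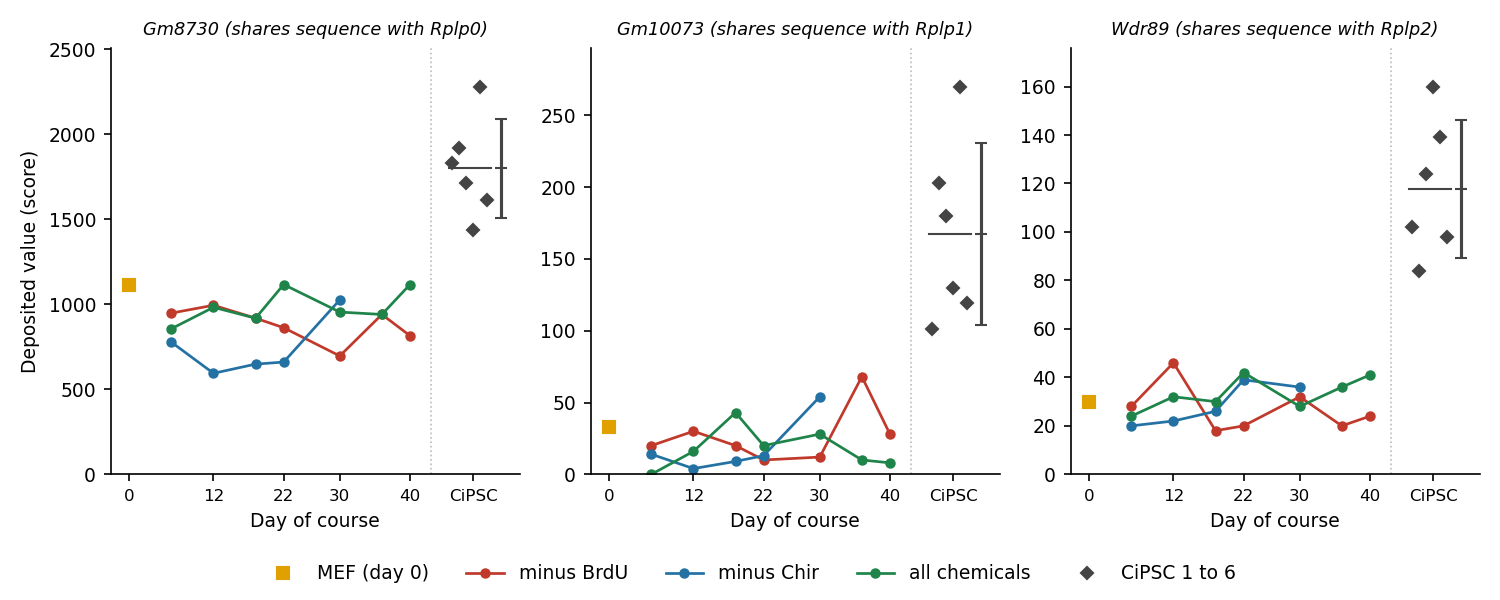
Deposited values (score, linear axes from 0, 1 scale per panel) of Gm8730, Gm10073 and Wdr89, which share 75-base stretches with Rplp0, Rplp1 and Rplp2, by day of the course, with MEF at day 0 and the 6 CiPSC libraries with mean (line) and SD (bar) at the right. In each panel all CiPSC libraries lie above MEF and every course library.

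Of the ribosomal proteins whose symbols fall outside the naming rule, 3 are described here: Rpsa, Fau and Rack1, a scaffold protein of the small subunit. None of these 3 was called in MEF against CiPSC or in the course comparisons. Rack1 was lower than in CiPSC on day 40 of minus BrdU, by -1.12 ± 0.25 (limma, adjusted p = 0.0159), and on day 40 of all chemicals, by -1.12 ± 0.25 (limma, adjusted p = 0.0251), a call that was lost without CiPSC 1 (adjusted p = 0.0516). Rack1 had 8316 in MEF, 3846 to 6869 in minus BrdU, 4210 to 6084 in minus Chir and 4210 to 6084 with all chemicals, against 8316 to 11332 in CiPSC. As with Rplp0, its MEF value lay in the CiPSC range and its course values below it. Rpsa was called lower on day 40 of minus BrdU, by -0.65 (limma, adjusted p = 0.0205).

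Most measured genes that build ribosomes were lower in MEF and in both day 40 libraries than in CiPSC. Of 38 measured genes for ribosome assembly and RNA polymerase I, 30 (78.9%) were lower in MEF, 31 (81.6%) on day 40 of minus BrdU and 26 (68.4%) on day 40 of all chemicals, and 0 were higher, against 22.2%, 22.4% and 14.8% of all genes called lower. The median differences of these 38 genes were -1.54, -1.79 and -1.40, against -0.15, -0.10 and -0.06 over all genes. Dkc1 encodes dyskerin, the enzyme that makes pseudouridine in ribosomal RNA. Among the 38 it had the largest difference as measured in each of the 3 comparisons. The size of the difference of Ncl, at the table's maximum in 5 libraries, is not known. Dkc1 had 128 in MEF, 66 to 152 in minus BrdU, 68 to 102 in minus Chir and 107 to 462 with all chemicals. In CiPSC it had 1517 to 2917. Its differences were -4.08 ± 0.34 in MEF, -4.83 ± 0.34 on day 40 of minus BrdU and -2.24 ± 0.34 on day 40 of all chemicals (limma, adjusted p = 0.000365, 0.000146 and 0.0071). Fbl, the fibrillarin gene for the ribosomal RNA methyltransferase, had 227 in MEF, 168 to 350 in minus BrdU, 212 to 428 in minus Chir and 240 to 490 with all chemicals, against 1016 to 1791 in CiPSC, and was called in all 3 (log2 differences of -2.48, -2.63 and -1.78). Rrn3, which brings RNA polymerase I to its promoters, had 317 in MEF, 205 to 316 in minus BrdU, 290 to 332 in minus Chir and 214 to 439 with all chemicals, against 948 to 1092 in CiPSC, and was called in all 3 (-1.69, -2.20 and -1.22). These lists were chosen with earlier results known, and the counts describe these libraries.

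Another list held 25 translation factors and other genes taken as TOP mRNAs. Whether each of them carries the tract was not checked. In MEF 13 (52%) were lower and 1 higher, and on day 40 of minus BrdU 16 (64%) were lower and 2 higher. On day 40 of all chemicals 11 (44%) were lower and 0 higher. Over all genes 22.2%, 22.4% and 14.8% were called lower and 17.9%, 19% and 12.7% higher. The medians of the 25 were -1.02, -1.19 and -0.74, against -0.15, -0.10 and -0.06 over all genes. Eef1b2, a subunit of the elongation factor that reloads eEF1A with GTP, had 2550 in MEF, 1985 to 4210 in minus BrdU, 1441 to 3846 in minus Chir and 1126 to 3846 with all chemicals, against 5529 to 6869 in CiPSC (-1.26, -1.34 and -1.50 in MEF, day 40 of minus BrdU and day 40 of all chemicals, all called). Naca, a chaperone subunit at the ribosome's exit tunnel, was called in all 3 as well (-1.61, -1.79 and -1.13). Tpt1, the gene of a TOP mRNA that encodes a small calcium-binding protein, went the other way and was called higher than in CiPSC in MEF and on day 40 of minus BrdU, by 0.74 ± 0.20 in each (limma, adjusted p = 0.0302 and 0.0295). Eef1a1, the main elongation factor gene, was at the table's maximum in all 26 libraries and cannot show a difference. Npm1, a nucleolar chaperone gene, was at the maximum in 9 libraries, all 6 CiPSC among them and day 40 of all chemicals too, so that last difference cannot be read and the size of the other 2 is not known. Pabpc1, the gene of the poly(A)-binding protein, was at the maximum in 11 libraries, and Ncl, the nucleolin gene of the assembly list, in 5, so the size of their differences is not known either.

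The 77 mitochondrial ribosomal protein genes serve the organelle's own ribosome. Of them 22 (28.6%) were lower in MEF, 21 (27.3%) on day 40 of minus BrdU and 23 (29.9%) on day 40 of all chemicals, beside 22.2%, 22.4% and 14.8% of all genes. The first 2 shares are near those of all genes. In the other direction 0, 1 and 0 were higher, beside 17.9%, 19% and 12.7% of all genes. Medians were -0.64, -0.56 and -0.76, against -0.15, -0.10 and -0.06 over all genes. The last count was 14 without CiPSC 4 and 15 without CiPSC 1 or CiPSC 3.

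**Figure D4:**
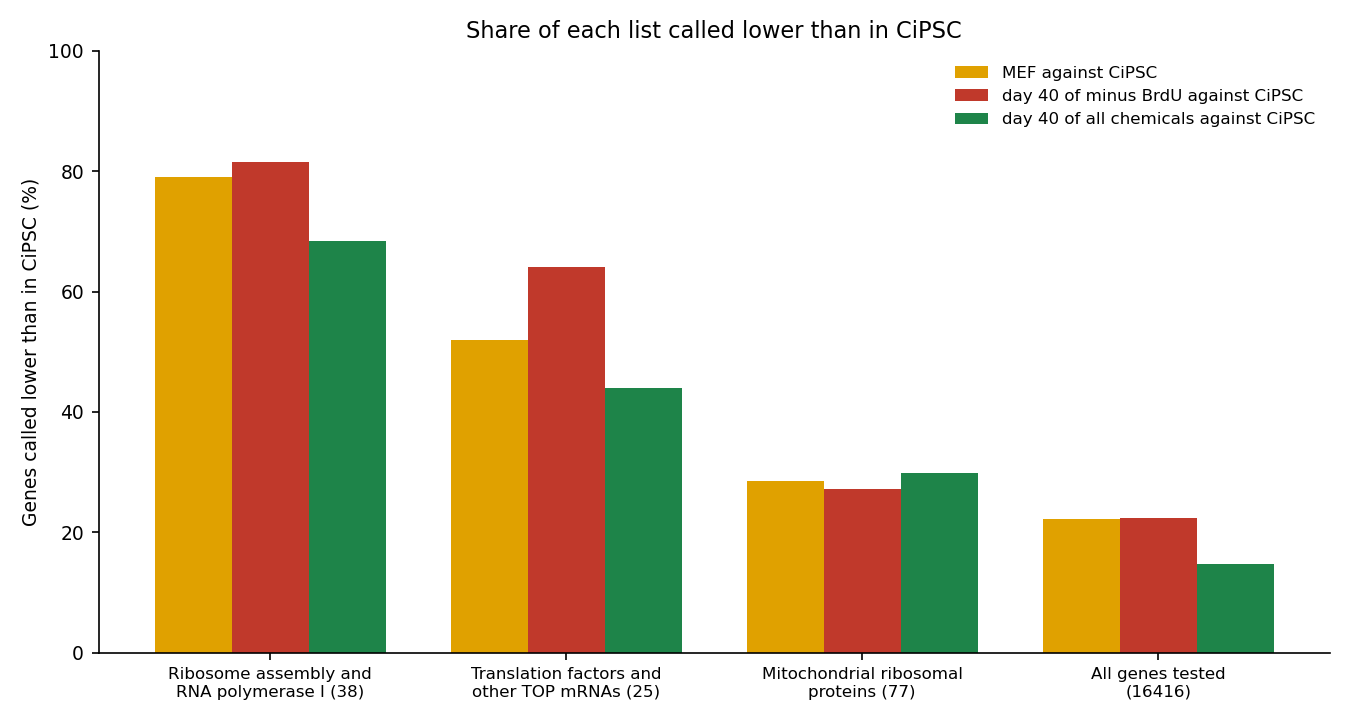
Percentage of genes called lower than in CiPSC (limma, adjusted p under 0.05) in MEF and day 40 of minus BrdU and all chemicals. The vertical axis starts at 0. Bars are for 38 ribosome assembly genes, 25 genes taken as TOP mRNAs, 77 mitochondrial ribosomal protein genes and all 16416 genes tested. The assembly bars reach 78.9%, 81.6% and 68.4%, against 22.2%, 22.4% and 14.8% over all genes.

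The same lists were counted between the courses. In minus BrdU against all chemicals 21.5% of all genes were lower and 21.1% higher. Of the lists, 10 of 38 assembly genes and 9 of 25 genes taken as TOP mRNAs were lower, and 2 and 2 higher. Of 77 mitochondrial genes, 14 were higher and 1 lower. These counts depended on single days: the assembly count ran from 5 (without day 22 or day 40) to 16 (without day 6), the TOP count was 5 without day 36 or day 40, and the mitochondrial count was 8 without day 40. Over days 6 to 30 alone the counts were 2 assembly genes lower, 3 genes of the TOP list lower and 3 mitochondrial genes higher. In minus Chir against all chemicals 7 of 38 and 6 of 25 were lower and 18 of 77 mitochondrial genes were higher. Over all genes 12.9% were lower and 13.5% higher. All 3 counts were 0 without day 18 or without day 22. The shares of all genes called with days left out were not counted in either comparison. A change in these lists alone therefore cannot be told apart from a change over all genes. Of 12 measured regulators of ribosome synthesis, 5 were lower and 2 higher in minus BrdU against all chemicals. Among them, Mycn, the gene of a MYC family factor that drives ribosome synthesis, had 0 to 5 in minus BrdU, 5 to 22 in minus Chir and 22 to 232 with all chemicals. Myc was higher in minus BrdU than with all chemicals, by 1.26 ± 0.30 (limma, adjusted p = 0.00979).

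The libraries followed their labels. Summed fibroblast markers (Thy1, Col1a1, Col1a2, Prrx1, Twist1 and Postn) were at 56985 in MEF and 44 to 354 in CiPSC, and summed pluripotency markers at 13 in MEF, 5 to 4308 with all chemicals and 23799 to 40131 in CiPSC. Summed cell cycle markers (Mki67, Top2a, Ccna2, Ccnb1 and Cdk1) were highest in CiPSC, as were the group means of the 4 ribosomal rows, but did not follow them in every library, as day 30 of minus Chir shows. They were 1591 in MEF, 76 to 1139 in minus BrdU, 325 to 2418 in minus Chir and 1866 to 4189 with all chemicals, against 6052 to 8292 in CiPSC. Zfp42 and Esrrb were listed at 0 in MEF. Macrophage markers (Lyz2, C1qb, C1qa, Csf1r and Cd68) summed to 3256 in MEF and to at most 445 elsewhere, with Lyz2, C1qb and C1qa at 0 in every CiPSC library, and primitive endoderm markers to 395 to 8675 with all chemicals, against 7 to 64 in CiPSC. The part of cell division or of other cells in the differences above was not tested, and in bulk RNA fewer cells of a type and less RNA per cell cannot be told apart.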

How the data were processed

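Total RNA of 26 mouse libraries was sequenced after TRIzol extraction and TruSeq library preparation on a NextSeq instrument, per the labels' protocols. Bowtie2, RSEM, bcl2fastq and the mm10 build are named, without versions, per the submitters' processing notes, and the annotation, normalization and filter are not given in the sources used here. The deposited values are treated as scores: they are whole numbers that follow 1 common distribution in every library, as quantile normalization gives, although the table's name says CPM. Library medians are 76 to 77, and no counts can be recovered. Places within blocks of 10 near-equal values were read for 727 genes that were among the 400 highest values in at least 5 libraries. A gene was at its commonest place in 68.3% of these libraries on average. Grouped by that place, the genes differ in median GC content (41.7% to 53.8%). A high value may therefore be close to a rank within a set of genes, and lower values were not examined.

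Tests were two-sided limma 3.58.1 fits in R 4.3.3 on log2(value + 1) with a trended prior variance, as described with the results. The fits were also run on simulated independent values with planted changes. Those values had no steps, no maximum and no dependence between days, so that run cannot give the error rates of these fits. Positions, sequences and shared windows come from GENCODE M21 and RefSeq. Members were all rows that match the symbol rule. Named genes are the stalk genes, Rpl6l, called members and examples from comparison lists, the examples being picked after values were seen. The members and lists were chosen with earlier results of these data known. Alternatives were a pseudocount of 5, other filters on low values, values at the maximum set to missing, each day or CiPSC library left out, and fits without the day block or over all 3 courses.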

Additional observations from a re-analysis of the deposited data

Results flagged for a closer look

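Among the groups of 5 to 7 libraries of the 4 genes, 2 values stood far from the rest of their group by Dixon's criterion, which chance meets in about 1 of 20 groups. Rplp1 on day 30 of minus Chir was at 8303, with a gap to the next value of 0.921 of the group's range against a critical 0.71. The group is a course of 5 days, so a change with time is part of its spread. Rpl6l in CiPSC 3 was at 6861, with a gap of 1 of the range against a critical 0.625, because the other 5 CiPSC libraries hold 1 value, in the next block down.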

How the results depend on the processing

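Of 340 recomputed values of the 4 genes, 318 kept direction and call, 5 lost a call, 4 gained one and 13 changed sign. The counts of called members stayed within 1.5 times of the main count under every alternative run, except in 2 comparisons. For minus Chir against minus BrdU, leaving out 1 day gave 0 to 2 calls. For day 40 of all chemicals against CiPSC, a pseudocount of 5 gave 2 calls, and leaving out 1 CiPSC library gave 0 to 2, so that count rests on single libraries. The sign changes were all in differences that were not called: in minus BrdU against all chemicals Rplp0 ran from -0.07 to 0.04 and was 0.00 over days 6 to 30 alone; in minus Chir against all chemicals Rplp1 ran from -0.30 to 0.07 and Rplp2 from -0.10 to 0.27; in the trend Rplp0 ran from -0.04 to 0.11, Rplp1 from -0.04 to 0.07 and Rpl6l from -0.17 to 0.00. Dropping the day block changed no call of a member. Depth is unknown, so no limit from counting can be given, and steps between blocks limit how small a difference can be seen. The recomputed counts and values of the comparison lists given with the results were added after seeing the data. Shares of all genes called were not recounted under the alternatives.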
